A study of Mus musculus with 12 samples.

Results

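The 10 genes described here encode the cell-to-cell adhesion proteins E-, N-, P-, VE-, OB- and T-cadherin (Cdh1, Cdh2, Cdh3, Cdh5, Cdh11 and Cdh13), the alpha-, beta- and p120-catenins (Ctnna1, Ctnnb1 and Ctnnd1) and desmoplakin (Dsp). They were picked by symbol, 10 of the 29462 genes in the deposited expression table, and each symbol stood on 1 row. RNA was measured in primary aortic smooth muscle cells of 2 genotypes, from mice lacking cystathionine gamma-lyase in all tissues (CSE KO, 6 libraries) and from C57BL/6J mice (CSE WT, 6 libraries). The enzyme, CSE for short, is the product of Cth and a source of hydrogen sulfide. Every culture of both genotypes had been kept in medium with fetal bovine serum and had received angiotensin II, a vasoconstrictor peptide, at 1 uM for 24 h. The study asked how loss of CSE alters the transcriptome of these cells with a view to abdominal aortic aneurysm. Cells without angiotensin II were not analysed here. Whether each library had its own animal or culture is not in the labels, so the spread between libraries may be technical.

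Classical cadherins bind the same cadherin on the neighbouring cell through their extracellular repeats. Their cytoplasmic tails hold p120-catenin near the membrane and beta-catenin further along, and beta-catenin carries alpha-catenin, which links the complex to actin. Beta-catenin that is not held at junctions can be degraded or can act in the nucleus with TCF/LEF factors in Wnt signalling. Cdh1 is typical of epithelia, Cdh2 of neural, muscle and mesenchymal cells including vascular smooth muscle, Cdh5 of endothelium and Cdh11 of mesenchyme. Cdh13 has no cytoplasmic tail and sits in the membrane by a lipid anchor. Desmoplakin ties desmosomes, a separate kind of junction, to intermediate filaments.

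Levels are FPKM, fragments scaled by gene length and by library, so genes can be set side by side. Differences are KO minus WT on the log2(FPKM + 1) scale, which understates the change of low genes. FPKM summed to 255538 to 281432 per library. Correlations of log2(FPKM + 1) across tested genes lay at 0.993 to 0.995 within KO replicates 1 to 4 and at 0.992 to 0.995 within WT. KO replicates 5 and 6 stood apart, with correlations of 0.947 to 0.96 to the other KO libraries, and for many of the genes below their values are given separately. Cth itself was at 0 to 0.02 FPKM in KO and 0 to 0.08 FPKM in WT, so its RNA does not check the genotype labels. The defining contractile genes Myh11 and Cnn1 reached at most 0.03 and 0.24 FPKM in KO and 0.02 and 0.03 FPKM in WT, so the labelled cell type is not borne out by them. Of 10 contractile markers listed, 7 were below 1 FPKM in all libraries. Acta2, smooth muscle actin, was at 75.28 to 145.52 FPKM in KO and 111 to 140.4 FPKM in WT. Smtn, smoothelin, was at 8.81 to 20.53 FPKM in KO and 11.77 to 13.89 FPKM in WT. Xist was at 0.31 to 3.53 FPKM in KO and 0.01 to 0.04 FPKM in WT, and the Y-linked Ddx3y at 3.49 to 6.78 FPKM in KO and 9.87 to 11.81 FPKM in WT. The sex of the animals is not in the labels, and its part in the results was not tested. The 10 genes were chosen with results of this same contrast known, so their levels and differences are a description and carry no p-value.

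Among the type I cadherins, Cdh1 and Cdh2 were lower and Cdh3 higher in KO. Cdh1 (chr8:106603351-106670246, plus strand, GRCm38) had a lowest, median and highest value of 0.48, 0.92 and 1.18 FPKM in KO, against 63.33, 64.34 and 67.56 FPKM in WT. KO replicates 5 and 6 held 0.48 and 0.49 FPKM and replicates 1 to 4 held 0.87 to 1.18 FPKM. The genotypes were far from overlapping, with means of 0.86 ± 0.314 FPKM in KO and 65.0 ± 1.69 FPKM in WT (SD, n = 6 each). The difference was -5.17 ± 0.099 (SE), the KO mean being 75.6-fold lower. Cdh2 had 24.67, 29.14 and 29.88 FPKM in KO, against 118.55, 124.7 and 130.47 FPKM in WT. It was the most abundant of these cadherins in both genotypes, at 28.5 ± 1.94 FPKM in KO and 124.5 ± 4.59 FPKM in WT, with a difference of -2.09 ± 0.054. KO replicate 5 held the lowest Cdh2 value, and replicate 6, at 28.97 FPKM, lay with the other KO libraries.

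Cdh3, whose gene lies next to Cdh1 on chromosome 8 (chr8:106510891-106557297, plus strand, GRCm38), went the other way. The gap between these annotated genes is 46053 bases and holds 1 annotated coding gene, a predicted one. Cdh3 had 0.35, 1.59 and 1.74 FPKM in KO, against 0, 0.02 and 0.06 FPKM in WT. KO replicates 1 to 4 held 1.56 to 1.74 FPKM, replicates 5 and 6 held 0.35 and 0.54 FPKM, and every KO value lay above the WT values. Its difference was 1.08 ± 0.18 (SE from the fit with no filter on low values). Its level stayed below the threshold for testing, at least 1 FPKM in at least 6 libraries, which 4 libraries reached.

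Cdh11 was nearly absent from WT and present in every KO library. Cdh11 (chr8:102632095-102785642, minus strand) had 2.58, 5.75 and 6.25 FPKM in KO, against 0.03, 0.05 and 0.08 FPKM in WT. KO replicates 1 to 4 held 5.69 to 6.25 FPKM and replicates 5 and 6 held 3.08 and 2.58 FPKM. The difference was 2.43 ± 0.16, with means of 4.88 ± 1.61 FPKM in KO and 0.0517 ± 0.0204 FPKM in WT (SD, n = 6 each). Cdh5 (chr8:104101625-104144511, plus strand), of the same type II subfamily and 1315982 bases from Cdh11 with no coding gene annotated between them, was at 0 to 0.01 FPKM in KO and 0 to 0.01 FPKM in WT. It is the only one of the 10 genes whose genotypes overlapped. Cdh13 (chr8:118283733-119324921, plus strand), the cadherin without a tail, had 0.26, 1.22 and 1.42 FPKM in KO, against 3.83, 3.88 and 4.63 FPKM in WT. KO replicates 5 and 6 were the lowest at 0.26 and 0.36 FPKM, where replicates 1 to 4 held 1.21 to 1.42 FPKM. The difference of Cdh13 was -1.38 ± 0.16.

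**Figure D1:**
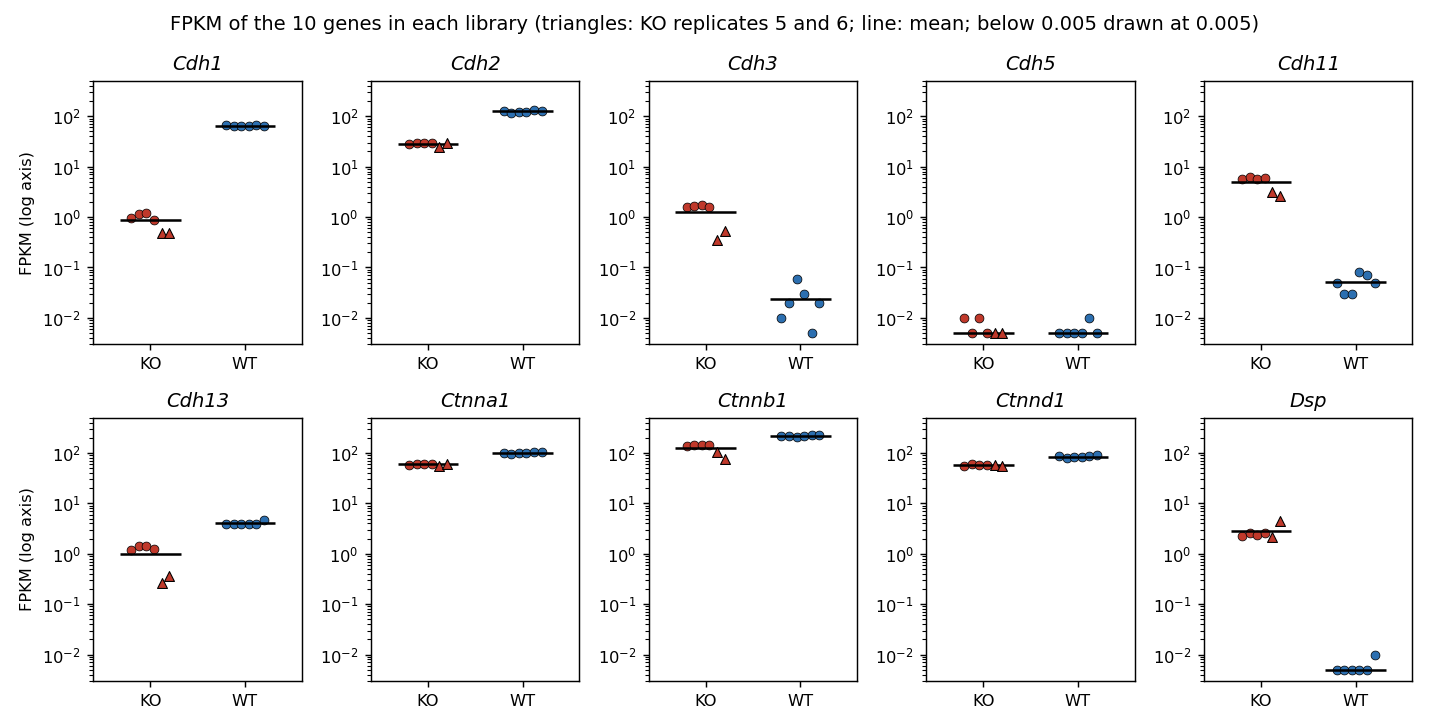
FPKM of each gene on a log axis in the 6 KO libraries (red, triangles for KO replicates 5 and 6) and the 6 WT libraries (blue), with the mean as a line and values below 0.005 drawn at 0.005. Cdh1, Cdh2, Cdh13 and the catenins are lower in KO, Cdh3, Cdh11 and Dsp higher, and Cdh5 lies at or near 0 in both.

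The summed level of the 6 cadherins was 36.4 ± 4.58 FPKM in KO and 193.6 ± 5.86 FPKM in WT (SD, n = 6 each), with ranges of 28.84 to 40.41 FPKM in KO and 187.01 to 202.05 FPKM in WT. The make-up of that sum differed as well. Cdh2 made up 78.7% of it in KO and 64.3% in WT, and Cdh1 2.3% in KO and 33.6% in WT. Cdh11 took 13.1 ± 3.14% in KO, making it the second most abundant cadherin there, and 0.0266% in WT. Cdh3 took 4.14% to 4.37% in KO replicates 1 to 4, 1.21% and 1.64% in KO replicates 5 and 6, and 0.0122% on average in WT. For Cdh13, KO replicates 1 to 4 had a share of 3.14% to 3.56%, while KO replicates 5 and 6 had 0.902% and 1.09%, against 1.94% to 2.37% in WT, so that KO libraries lay above and below WT and none within its range. The Cdh1 to Cdh2 ratio of FPKM was 0.0169 to 0.0398 in KO and 0.498 to 0.545 in WT. In KO replicates 5 and 6 the share of Cdh2 was 85.5% and 87.9% and that of Cdh11 10.7% and 7.83%, while in KO replicates 1 to 4 these shares were 73.9% to 75.4% and 14.6% to 15.5%.

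**Figure D2:**
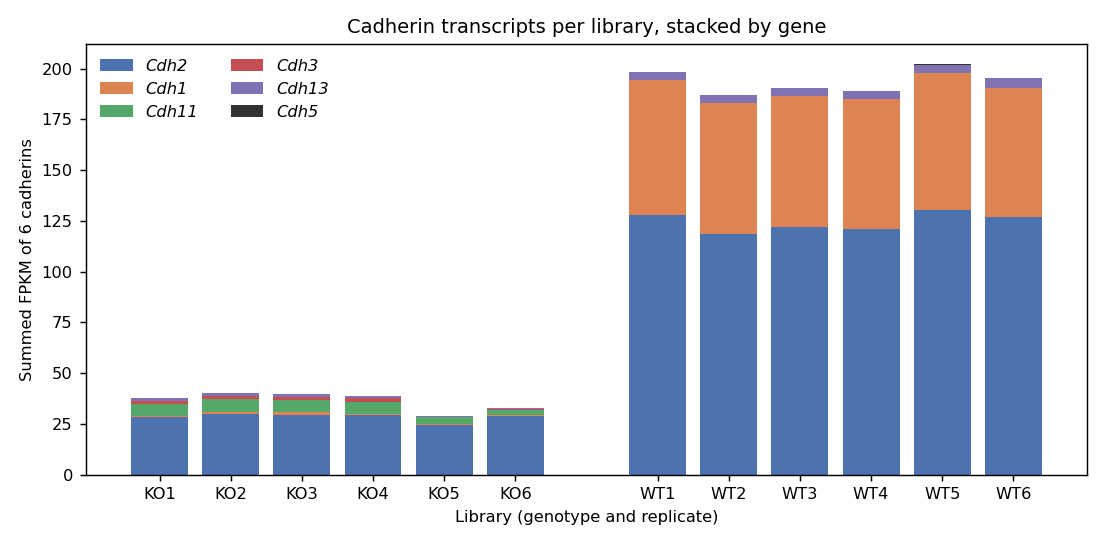
Summed FPKM of the 6 cadherins in each KO library (left) and WT library (right), with bars stacked by gene. The KO bars reach 28.84 to 40.41 FPKM and are mostly Cdh2 with Cdh11, whereas the WT bars reach 187.01 to 202.05 FPKM and are Cdh2 and Cdh1.

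The 3 catenin genes were lower in KO, by less than the summed cadherins. Ctnnb1, which encodes beta-catenin (chr9:120929216-120960507, plus strand), had 77.28, 140.4 and 144.09 FPKM in KO, against 210.44, 215.9 and 229.96 FPKM in WT. The KO libraries were uneven, with 138.82 to 144.09 FPKM in replicates 1 to 4 and 103.72 and 77.28 FPKM in replicates 5 and 6. The difference was -0.84 ± 0.14, and -0.62 without those 2 libraries. Ctnna1, encoding alpha-catenin, had 55.79, 59.63 and 61.77 FPKM in KO, against 96.3, 99.97 and 102.97 FPKM in WT, a difference of -0.75 ± 0.042. Ctnnd1, encoding p120-catenin (chr2:84600071-84650765, minus strand), had 54.67, 57.41 and 59.58 FPKM in KO, against 81.04, 84.35 and 89.23 FPKM in WT, a difference of -0.56 ± 0.044. For Ctnna1 and Ctnnd1, KO replicates 5 and 6 lay within or just below the range of the other KO libraries.

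Per transcript of a cadherin with a catenin-binding tail (Cdh1, Cdh2, Cdh3, Cdh5 and Cdh11 summed), the KO libraries held more catenin RNA. The ratio of Ctnnb1 to that sum was 3.5 ± 0.558 in KO and 1.16 in WT, with ranges of 2.37 to 3.81 in KO and 1.1 to 1.21 in WT. The ratio of Ctnna1 was 1.54 to 1.95 in KO and 0.51 to 0.543 in WT, and that of Ctnnd1 1.5 to 2.0 in KO and 0.433 to 0.468 in WT. Among the catenins themselves, Ctnnb1 over Ctnna1 was 2.3 to 2.42 in KO replicates 1 to 4, 1.86 and 1.29 in KO replicates 5 and 6, and 2.11 to 2.25 in WT. Ctnnd1 over Ctnna1 was 0.92 to 1.02 in KO and 0.825 to 0.867 in WT.

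**Figure D3:**
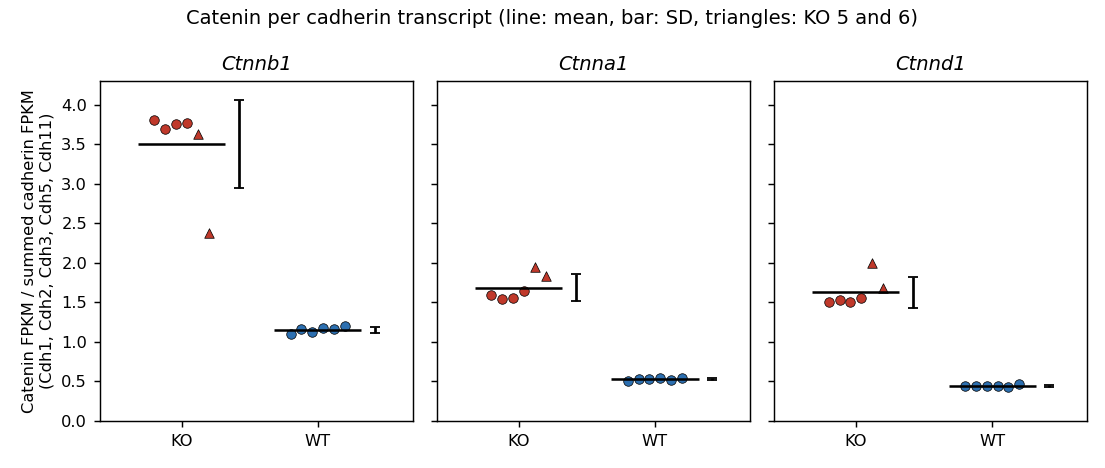
Ratio of FPKM of each catenin gene to the summed FPKM of Cdh1, Cdh2, Cdh3, Cdh5 and Cdh11 in the KO and WT libraries (lines: means; bars: SD; triangles: KO replicates 5 and 6). Every KO library lies above every WT library in the 3 panels, and KO replicate 6 is lowest of the KO libraries for Ctnnb1, at 2.37.

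Dsp (chr13:38151294-38198577, plus strand) was listed at 0 in WT in all libraries but replicate 6, which held 0.01 FPKM. In KO its lowest, median and highest values were 2.17, 2.5 and 4.53 FPKM, the last in KO replicate 6. The difference was 1.88 ± 0.11, and no fold is given against a genotype at 0. RefSeq promoter windows of GRCm38.p6 were read for 3 of the 10 genes, Ctnnb1, Ctnnd1 and Dsp. Nothing is said here about promoters of the other genes. The 250 bases before the start are shown for Dsp, whose RNA was seen in KO libraries, and for the first of 2 RefSeq starts of Ctnnb1, expressed in both genotypes, with CCAAT boxes in capitals (CCAAT or its complement ATTGG). These windows are chr13:38151044-38151293 and chr9:120933150-120933399, both plus strand. The Dsp window ends just before the gene start given above. Both Ctnnb1 windows lie inside the gene span given above (chr9:120929216-120960507), as the 2 annotations place its start differently.
Dsp: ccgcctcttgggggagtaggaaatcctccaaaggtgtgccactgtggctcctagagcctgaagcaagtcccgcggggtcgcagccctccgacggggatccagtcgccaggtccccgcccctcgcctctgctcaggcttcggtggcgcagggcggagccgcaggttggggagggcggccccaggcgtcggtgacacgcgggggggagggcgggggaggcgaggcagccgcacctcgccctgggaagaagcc
Ctnnb1: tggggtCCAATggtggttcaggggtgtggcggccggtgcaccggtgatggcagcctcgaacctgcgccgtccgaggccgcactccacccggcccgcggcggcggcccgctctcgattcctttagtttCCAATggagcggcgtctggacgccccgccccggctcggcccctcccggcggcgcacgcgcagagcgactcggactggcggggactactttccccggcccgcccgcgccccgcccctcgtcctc
Both windows were rich in G and C, at 72.4% for Dsp and 74.8% for Ctnnb1, and held 22 and 35 CG pairs, a number reached by 14.8% and 2.97% of all 32851 promoter windows. The window shown for Ctnnb1 had 2 CCAAT boxes and that of Dsp none, against 33.8% of all windows with at least 1. The window of the second Ctnnb1 start (chr9:120933328-120933577), which overlaps the first, had 0 CCAAT boxes and 43 CG pairs. None of these windows held CAGGTG or CACCTG, the E-box letters read by SNAIL- and ZEB-type factors, which 17.2% of all windows hold, nor CTTTGAT or ATCAAAG, letters of TCF/LEF sites, found in 3.21%.

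In KO the order of levels was Ctnnb1, Ctnna1, Ctnnd1, Cdh2, Cdh11, Dsp, Cdh3, Cdh13, Cdh1 and Cdh5. In WT it was Ctnnb1, Cdh2, Ctnna1, Ctnnd1, Cdh1, Cdh13, Cdh11 and Cdh3, with Cdh5 and Dsp last. Neighbours whose libraries overlapped were Ctnna1 with Ctnnd1, Cdh11 with Dsp, and Cdh3 with Cdh13 and Cdh13 with Cdh1 in KO, and Cdh11 with Cdh3, Cdh3 with Cdh5 and Cdh5 with Dsp in WT. Of the 10 genes 8 passed the threshold for testing, Cdh11 and Dsp only through their KO libraries. For Cdh1 the WT libraries sufficed, and of the KO libraries only replicates 2 and 3 reached 1 FPKM. Some listed genes below also passed through 1 genotype only, such as Cdh26, Pard3, Snai1, Wt1, Upk3b, Col3a1, Dpt and Csf1r (KO) and Pkp2 and Cgn (WT). In such genes the filter itself separates the genotypes, so their p-values are not evidence apart from it. In a limma fit over 11831 genes all 8 were called, 2 higher and 6 lower in KO, where 63.5% of all tested genes were called, 32.6% higher and 30.9% lower. Libraries of the genotypes did not overlap in 9 of the 10 genes, which include the untested Cdh3 and Cdh5. The share was 46.4% of tested genes and 24.6% of the 29060 genes above 0 in a library. With KO replicates 1 to 4 only, 77.1% of tested genes were called. Since the genes were chosen from this contrast, nothing is read from these counts.

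Few other cadherins were expressed. Of 25 further cadherins and calsyntenins listed, 19 were in the table and 3 passed the threshold, and the rest averaged at most 0.58 FPKM in a genotype. Cdh26 rose to 1.56 ± 0.306 FPKM in KO, against 0.122 ± 0.0392 FPKM in WT (limma adjusted p = 2.2e-08). Cdhr1, a cadherin-related protein known from photoreceptors, was called higher in KO (adjusted p = 0.011), with 44.49 to 52.79 FPKM in KO replicates 1 to 4, 11.15 and 13.59 FPKM in KO replicates 5 and 6, and 12.72 to 13.53 FPKM in WT. Clstn1, a calsyntenin, fell to 23.8 ± 2.58 FPKM in KO, against 34.8 ± 1.09 FPKM in WT (adjusted p = 1.1e-05). The median difference of these 3 genes was 1.18, beside 0.01 for all genes tested.

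Among protocadherins and giant cadherins 7 of 21 were tested, of which 2 rose, 3 fell and 2 did not pass (3 higher and 3 lower with KO replicates 1 to 4 only). The shares over all tested genes were 32.6% higher and 30.9% lower. Fat4, a giant cadherin that acts in planar cell polarity, rose to 5.52 ± 1.09 FPKM in KO, against 1.41 ± 0.177 FPKM in WT (limma adjusted p = 4e-08). Pcdh7 rose to 35.47 to 40.84 FPKM in KO replicates 1 to 4 and 24.57 and 24.55 FPKM in KO replicates 5 and 6, against 14.12 to 16.42 FPKM in WT (adjusted p = 7.1e-06). Fat1 fell to 41.7 ± 10.9 FPKM in KO, against 64.6 ± 3.87 FPKM in WT (adjusted p = 0.00063), with KO replicate 6 at 62.36 FPKM inside the WT range. Pcdh18 and the clustered protocadherin Pcdhgc3 were the others that fell, and the median of the 7 was -0.01.

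Of the desmosome list 5 of 14 genes in the table were tested, 1 of which rose and 4 of which fell, and the median was -1.15. All tested genes, the base for this list and the other catenins below, were called higher in 32.6% and lower in 30.9%. The desmosomal cadherins Dsg2, Dsg3, Dsg4, Dsc1, Dsc2 and Dsc3 were at or below 0.05 FPKM in all libraries, so Dsp was present in KO without RNA of these partners above that level. Pkp2, plakophilin 2, which binds desmoplakin, fell to 0.417 ± 0.0484 FPKM in KO, against 2.23 ± 0.133 FPKM in WT (limma adjusted p = 1.5e-10). Ppl, the plakin periplakin, fell to 14.3 ± 3.08 FPKM in KO, against 32.3 ± 1.85 FPKM in WT (adjusted p = 4.4e-06). Cdsn, corneodesmosin, fell to 3.66 ± 0.661 FPKM in KO, against 11.2 ± 0.396 FPKM in WT (adjusted p = 1.5e-08). Jup, plakoglobin, a close relative of beta-catenin found in both junction types, fell to 17.5 ± 3.15 FPKM in KO, against 22.8 ± 0.604 FPKM in WT (adjusted p = 0.0062). Perp was called higher in KO (adjusted p = 0.019), at 3.72 to 4.87 FPKM in KO replicates 1 to 4, 0.84 and 0.61 FPKM in KO replicates 5 and 6, and 0.85 to 1.06 FPKM in WT. Among the other catenins and armadillo proteins 5 of 9 were tested, 1 rose and 3 fell, with a median of -0.39. Besides Jup and Pkp2, Pkp4 fell to 14.9 ± 3.02 FPKM in KO, against 30.1 ± 0.929 FPKM in WT (adjusted p = 1.5e-06). The 1 rise, Ctnnal1 at 1.52 ± 0.18 FPKM in KO and 1.27 ± 0.0641 FPKM in WT (adjusted p = 0.036), was lost without KO replicate 1, 2 or 3 or WT replicate 1, 3, 4 or 5 (adjusted p = 0.063 to 0.081), with the replicate block (0.089), with no filter on low values (0.091) and with quantile normalization (0.2).

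Partners of the adherens junction moved in both directions. Of 28 genes 22 were tested, 11 rose, 7 fell and 4 did not pass, with a median of 0.18 (12 higher and 8 lower with KO replicates 1 to 4 only). The shares over all tested genes were 32.6% higher and 30.9% lower. Nectin2, an immunoglobulin-type adhesion protein of these junctions, rose to 27.5 ± 2.5 FPKM in KO, against 8.41 ± 0.378 FPKM in WT (limma adjusted p = 1.5e-10). Zyx, zyxin of actin-anchoring sites, rose to 55.62 to 57.8 FPKM in KO replicates 1 to 4 and 87.73 and 125.4 FPKM in KO replicates 5 and 6, against 26.7 to 28.8 FPKM in WT (adjusted p = 2.4e-05). The receptor tyrosine phosphatases went opposite ways: Ptprk rose to 5.07 ± 0.585 FPKM in KO, against 1.49 ± 0.0691 FPKM in WT (adjusted p = 2e-09), and Ptprf fell to 2.66 ± 0.77 FPKM in KO, against 12.2 ± 0.823 FPKM in WT (adjusted p = 3.4e-08). Afdn, afadin, and Vcl, vinculin, were among those that fell.

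Of 31 tight junction genes 12 were tested, 5 rose, 6 fell and 1 did not pass, with a median of -0.11. Over all tested genes 32.6% were called higher and 30.9% lower. Occludin (Ocln) was at most 0.01 FPKM in KO and 0.01 FPKM in WT. Pard3, a polarity scaffold, rose to 2.98 ± 0.357 FPKM in KO, against 0.503 ± 0.0864 FPKM in WT (limma adjusted p = 1.1e-09). Cldn12 rose to 11.3 ± 1.69 FPKM in KO, against 5.01 ± 0.326 FPKM in WT (adjusted p = 1.8e-07). Jam3 rose to 7.42 ± 1.41 FPKM in KO, against 3.35 ± 0.307 FPKM in WT (adjusted p = 5.8e-06). Cgn, cingulin, fell to 0.515 ± 0.0638 FPKM in KO, against 1.28 ± 0.121 FPKM in WT (adjusted p = 3.8e-07).

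Of the called genes for cleavage and turnover of cadherins, all but Adam10 were higher in KO. Among the 13 tested, 7 rose, 1 fell and 5 did not pass, with a median of 0.21 (8 higher and 1 lower with KO replicates 1 to 4 only, and 2 lower without KO replicate 2 or without KO replicate 3). Over all tested genes 63.5% were called, 32.6% higher and 30.9% lower. Mmp3, a stromelysin that can shed E-cadherin, rose to 832.81 to 917.5 FPKM in KO replicates 1 to 4 and 228.53 and 178.87 FPKM in KO replicates 5 and 6, against 22.97 to 29.85 FPKM in WT (limma adjusted p = 6.1e-07). Furin, a protease that removes the propeptide of cadherins, rose to 11.9 ± 1.01 FPKM in KO, against 6.53 ± 0.273 FPKM in WT (adjusted p = 1.2e-07). Psenen, which encodes a gamma-secretase subunit, rose to 22.4 ± 3.31 FPKM in KO, against 14.7 ± 1.34 FPKM in WT (adjusted p = 0.00024). Its KO replicate 6, at 16.07 FPKM, lay inside the WT range of 12.74 to 16.67 FPKM. Adam10, the protease that sheds E- and N-cadherin, was the 1 that fell, to 28.59 to 46.78 FPKM in KO, against 50.77 to 55.49 FPKM in WT (adjusted p = 0.008).

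**Figure D4:**
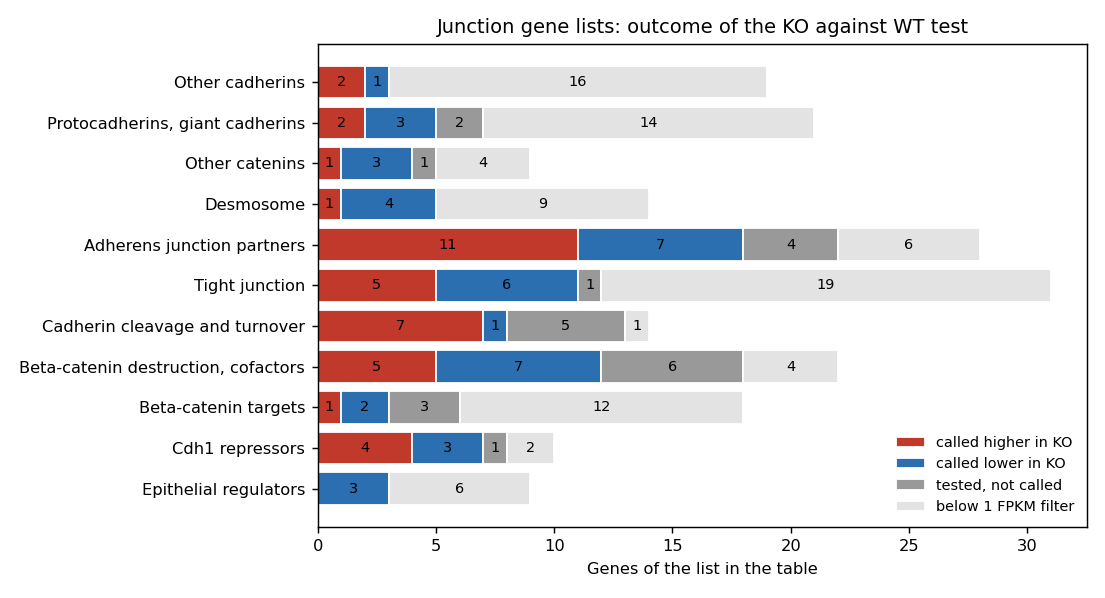
Number of genes in each list of junction genes and regulators that were called higher in KO (red), called lower in KO (blue), tested and not called (dark grey) or below the threshold for testing (light grey). In the adherens junction list 11 were higher and 7 lower, and 19 of 31 tight junction genes were below the threshold. Over all tested genes 32.6% were called higher and 30.9% lower.

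Genes of the beta-catenin destruction complex and of its nuclear cofactors were called in both directions. Of 18 tested 5 rose, 7 fell and 6 did not pass, with a median of -0.15 (6 higher and 9 lower with KO replicates 1 to 4 only, and 3 higher without WT replicate 1). Over all tested genes 32.6% were called higher and 30.9% lower, so nothing is read from these counts. Gsk3b, a kinase that marks beta-catenin for degradation, fell to 7.34 ± 0.973 FPKM in KO, against 14.8 ± 0.586 FPKM in WT (limma adjusted p = 1.6e-07). Tnks, tankyrase, which promotes loss of axin, fell to 7.36 ± 0.568 FPKM in KO, against 12.5 ± 0.854 FPKM in WT (adjusted p = 3.7e-07). Bcl9, a coactivator of beta-catenin, fell to 3.62 ± 0.548 FPKM in KO, against 5.33 ± 0.226 FPKM in WT (adjusted p = 7.6e-05). Amer1, a scaffold of the complex, rose to 4.09 ± 0.613 FPKM in KO, against 2.27 ± 0.198 FPKM in WT (adjusted p = 2.2e-05).

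Among 18 target genes of beta-catenin in the table the 6 that could be tested did not move together. Of these 1 rose, 2 fell and 3 did not pass, with a median of -0.17 (2 higher and 3 lower with KO replicates 1 to 4 only). The shares over all tested genes were 32.6% higher and 30.9% lower. Ccnd1, cyclin D1, fell to 67.31 to 85.86 FPKM in KO, against 113.32 to 135.06 FPKM in WT (limma adjusted p = 5.6e-06), and Myc fell to 21.4 ± 6.08 FPKM in KO, against 30.3 ± 1.77 FPKM in WT (adjusted p = 0.0041), with KO replicate 6 at 32.59 FPKM above the WT libraries. Ccn4 rose to 20.6 ± 2.75 FPKM in KO, against 11.6 ± 0.641 FPKM in WT (adjusted p = 3.6e-06). The tested targets that did not pass were Cd44, at 16.39 to 35.22 FPKM in KO and 22.22 to 28.07 FPKM in WT, Fst and Znrf3. The 12 targets below the threshold included some with more RNA in KO. Sp5 was at 0.97 to 1.92 FPKM in KO and listed at 0 in WT, Axin2 at 0.27 to 0.91 FPKM in KO and 0 to 0.01 FPKM in WT, and Lgr5 at 1.77 to 1.98 FPKM in KO replicates 1 to 4, 0.34 and 0.55 FPKM in KO replicates 5 and 6, and 0.02 to 0.07 FPKM in WT. With no filter on low values 10 of the 18 were called higher and 3 lower in KO, where 34.5% of all genes were called. Of the 18, 8 lay above and 1 below the WT libraries in every KO library, against 24.6% of all genes without overlap in either direction. Lef1 was at most 0.01 FPKM in KO and listed at 0 in WT.

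Known repressors of Cdh1 also moved in both directions. Of 8 tested 4 rose, 3 fell and 1 did not pass, with a median of 0.24. Over all tested genes 32.6% were called higher and 30.9% lower. Snai1, the zinc finger repressor SNAIL, rose to 15.03 to 23.1 FPKM in KO, against 0.25 to 0.81 FPKM in WT, a difference of 3.77 ± 0.12 (limma adjusted p = 1.1e-11). Snai2, SLUG, fell to 2.38 ± 0.277 FPKM in KO, against 21.8 ± 2.5 FPKM in WT, a difference of -2.75 ± 0.08 (adjusted p = 5.2e-12). Twist1 and Twist2 rose to 18.3 ± 0.709 and 9.79 ± 2.17 FPKM in KO, against 9.49 ± 0.504 and 4.29 ± 0.587 FPKM in WT (adjusted p = 4.1e-09 and 9.4e-06). Zeb1 was called lower, at 4.75 to 6.38 FPKM in KO and 6.17 to 6.69 FPKM in WT (adjusted p = 0.0071). Zeb2 was at 2.31 to 4.15 FPKM in KO and 3.56 to 4.25 FPKM in WT and did not pass (adjusted p = 0.17). Of epithelial regulators 3 of 9 were tested and fell, with a median of -0.58. Esrp2, an epithelial splicing factor that acts on p120-catenin transcripts among others, fell to 0.852 ± 0.207 FPKM in KO, against 5.63 ± 0.297 FPKM in WT (adjusted p = 1.4e-10). Klf4 fell to 40.8 ± 3.67 FPKM in KO, against 61.3 ± 1.98 FPKM in WT (adjusted p = 2e-06), and Foxa2 to 13.5 ± 1.08 FPKM in KO, against 15.4 ± 0.676 FPKM in WT (adjusted p = 0.014, and 0.058 on values rescaled to TPM). For Foxa2, KO replicate 6 at 15.68 FPKM lay inside the WT range of 14.72 to 16.11 FPKM. Grhl2 was at most 0.02 FPKM in KO and 0.11 FPKM in WT.

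**Figure D5:**
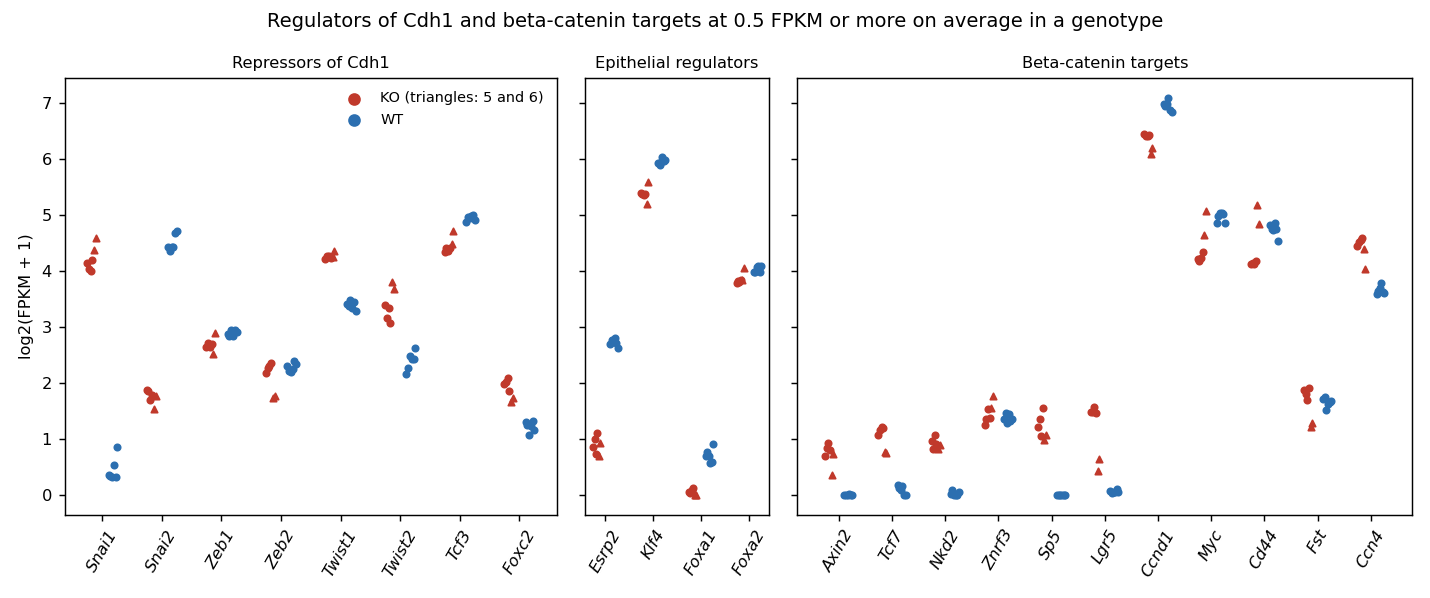
log2(FPKM + 1) of repressors of Cdh1, epithelial regulators and beta-catenin targets averaging 0.5 FPKM or more in a genotype, in KO (red, triangles for KO replicates 5 and 6) and WT libraries (blue). Snai1 is high in KO and Snai2 high in WT, and Axin2, Tcf7, Nkd2, Sp5 and Lgr5 lie near 0 in WT.

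The tested genes whose profile over the 12 libraries was most like that of Cdh1, by the root mean square difference of log2(FPKM + 1) centred on each gene's mean, were Aqp1 (0.256), Tspan8 (0.269) and Sfrp2 (0.288). Those most like Cdh11, the cadherin with the largest positive difference, were Pde1a (0.0482), Npr3 (0.0607) and Oplah (0.0874). Pde1a averaged 4.74 ± 1.7 FPKM in KO and 0.00333 FPKM in WT, and Npr3 4.96 ± 1.47 FPKM in KO and 0.07 ± 0.0155 FPKM in WT.

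Markers of other cell types are given beside the cadherins that are typical of them. The base for calls among them is the share over all tested genes, 32.6% called higher and 30.9% lower. Of 14 epithelial markers 12 were below 1 FPKM in all libraries. The 14 summed to 40.8 to 60.3 FPKM in KO and 74.29 to 84.45 FPKM in WT, nearly all Krt19. In every KO library 3 of the 14 lay below the WT libraries, Krt19 among them. Above them lay 2, Muc1 at 0.72 to 1.43 FPKM in KO and 0.16 to 0.53 FPKM in WT, and Krt18. Without overlap in either direction were 24.6% of all genes. The epithelial markers Epcam, Cldn7 and Ocln, typical partners of Cdh1 in epithelia, were at most 0.15, 0.11 and 0.01 FPKM in any library. The summed level of 7 mesothelial markers, which include Krt19, was 49.34 to 74.23 FPKM in KO and 84.94 to 95.72 FPKM in WT. Without Krt19 they went both ways, with Msln called lower (limma adjusted p = 0.025, but 0.051 without KO replicate 6 and 0.056 with no filter) and Wt1, Upk3b and Upk1b higher in KO (adjusted p = 2.8e-10, 2.6e-08 and 0.0037). Of 12 endothelial markers 11 were below 1 FPKM in all libraries, beside the near absence of Cdh5. The 12 summed to 1.9 to 3.37 FPKM in KO and 2.12 to 2.33 FPKM in WT, but single markers went both ways. Flt1 was called lower, at 0.65 to 1.58 FPKM in KO and 1.46 to 1.73 FPKM in WT (limma adjusted p = 0.0029). Kdr was at 0.4 to 0.81 FPKM in KO and 0 to 0.01 FPKM in WT, and Erg at 0.09 to 0.2 FPKM in KO and listed at 0 in WT. The 10 fibroblast markers, beside Cdh11, summed to 1175.43 to 1273.03 FPKM in KO replicates 1 to 4, 504.46 and 722.19 FPKM in KO replicates 5 and 6, and 830.88 to 880.37 FPKM in WT. Of 6 tested 3 were called higher in KO, Col3a1, Dpt and Pdgfra, and 1 lower, Col1a2. Col3a1 and Dpt passed the threshold through their KO libraries only. The 7 macrophage markers summed to 8.4 to 14.86 FPKM in KO and 2.13 to 2.93 FPKM in WT. Both that were tested were called higher in KO, Csf1r passing the threshold through its KO libraries only. Cd68 was at 5 to 10.96 FPKM in KO and 1.27 to 2.03 FPKM in WT (limma adjusted p = 1.1e-06), and Csf1r at 2.45 to 3.37 FPKM in KO and 0.58 to 0.83 FPKM in WT (adjusted p = 2.1e-09). Lyz2, below the threshold, was at 0.53 to 1.89 FPKM in KO and 0 to 0.23 FPKM in WT, while Ptprc and Adgre1 were at or below 0.04 FPKM in every library. The 10 contractile smooth muscle markers summed to 86.74 to 96.22 FPKM in KO replicates 1 to 4, 155.12 and 168.7 FPKM in KO replicates 5 and 6, and 123.88 to 152.47 FPKM in WT, mostly Acta2, and the 7 Schwann cell markers to at most 0.64 FPKM. In bulk RNA fewer cells of a type and less RNA per cell cannot be told apart, and the part of the make-up of the cultures in these results was not tested.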

How the data were processed

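RNA of 12 libraries (6 KO, 6 WT, grouped by the genotype in their titles) was measured as polyadenylated RNA by paired-end sequencing with strand marked by dUTP, per the labels' protocols. The deposited values are FPKM to 2 decimals, per the file headers; depth in reads is unknown. Per the submitters' processing notes, StringTie 1.3.4d, HISAT2 2.0.4, cutadapt 1.9, edgeR, DESeq2 and mm9 were used, in roles the notes do not give. No source used here states whether strand entered the counting, so overlapping genes are uncertain. A gene's FPKM also depends on what the rest of its library holds. Coordinates are those of GRCm38 (GENCODE M21), matched by gene ID (29384 of 29462), not of mm9.

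The 11831 genes reaching 1 FPKM in 6 or more libraries were compared on log2(FPKM + 1) by limma 3.58.1 under R 4.3.3, using a variance trend and no covariate, two-sided, adjusted by Benjamini-Hochberg over all tested genes at 0.05. The fit was also run on simulated data with independent noise and far fewer changed genes than are called here, so its outcome does not carry over to these data. All p-values measure the spread between libraries. The 10 genes, the lists and the rule for named genes (up to 4 called genes of each list with the largest difference) were chosen with earlier results of these data known. Pcdhgc3, Adam10, Afdn, Vcl, Sp5, Axin2, Tcf7, Nkd2, Lgr5, Lef1, Cd44, Fst, Znrf3, Zeb1, Zeb2, Grhl2, Lyz2, the desmosomal cadherins and the markers below 1 FPKM were named after their values were seen. Of the listed genes 1 is counted but not reported here. Alternatives covered the pseudocount, filter, TPM and quantile scaling, the replicate block and each library left out; KO replicates 1 to 4 only was added after seeing the data.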

Additional observations from a re-analysis of the deposited data

Results flagged for a closer look

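In 124 groups of 6 libraries, a library lay apart from its group, by a gap to the nearest library above Dixon's 95% limit for the group's range, in 15; chance gives about 1 in 20. Among the 10 genes these were KO replicate 5 for Cdh2 at 24.67 FPKM, KO replicate 6 for Dsp at 4.53 FPKM, WT replicate 6 for Cdh13 at 4.63 FPKM, and single WT libraries at 0.01 FPKM for Dsp and for Cdh5, where the other WT libraries are listed at 0. The share of Cdh13 in the summed cadherins was highest in WT replicate 6, at 2.37%. Per summed catenin-binding cadherin, Ctnnb1 was lowest in KO replicate 6, at 2.37, and Ctnnd1 highest in KO replicate 5, at 2.0.

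Among the listed genes, KO replicate 6 stood apart with the highest value for Fat1 (62.36 FPKM), Bcl9 (4.7 FPKM) and Foxa2 (15.68 FPKM) and with the lowest value for Psenen (16.07 FPKM). In WT a single library was highest for Cgn (1.52 FPKM) and Snai1 (0.81 FPKM) and lowest for Ppl (28.74 FPKM). The cause was not tested.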

How the results depend on the processing

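The direction of the 8 tested genes among the cadherins, catenins and desmoplakin held under all alternatives run that left them above the filter. With at least 5 FPKM in 6 libraries the count of these genes called higher was 0, since Cdh11 and Dsp were then not tested. With a pseudocount of 0.1 the difference of Cdh11 was 4.97, of Dsp 4.77, of Cdh13 -2.13 and of Cdh1 -6.16, and on values rescaled to TPM 3.92, 3.43, -1.89 and -5.88 in that order, since both lessen the weight of the added constant on low values. Of 731 values of named list genes under alternatives 720 kept direction and call, 11 lost the call (Ctnnal1 and Foxa2) and 0 reversed. Over all genes 3858 were called higher and 3657 lower; 2505 and 2270 with at least 5 FPKM, where fewer genes were tested.

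Replicate numbers of KO and WT libraries share only a number: same-numbered libraries deviated from their group means with correlations of -0.27 to -0.06, and 0 of 6 KO libraries correlated best with their own number. With the replicate block 3610 genes were called higher and 3349 lower, and the count of other catenins called higher was 0.

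With no filter on low values, counts called higher were 4 for other cadherins, 7 for protocadherins (5 lower), 0 for other catenins, 3 for desmosome genes, 10 for beta-catenin targets and 1 for epithelial regulators (5 lower). With at least 5 FPKM they were 1 for other cadherins, 1 for protocadherins, 0 for other catenins, 0 for desmosome genes, 7 for adherens junction partners, 3 for tight junction genes and 1 for the destruction complex and cofactors. With quantile normalization other catenins had 0 called higher, adherens junction partners 7, and cleavage and turnover 3 called lower. With KO replicates 1 to 4 only, 2 beta-catenin targets were called higher. Leaving out each library in turn gave 0 to 1 other catenins called higher, 1 to 2 cleavage genes called lower and 3 to 6 destruction complex genes called higher.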
